A study of Trichoderma reesei QM6a with 6 samples.

Results

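The transcripts described here are those of TRIREDRAFT_3405 (crt1), a sugar transporter gene, and of xyl1 (TRIREDRAFT_107776) and xdh1 (TRIREDRAFT_81271), the genes of the fungal pathway from D-xylose to D-xylulose. They were chosen by locus tag, and they are 3 of the 9113 genes in the deposited table of the series. The reference table gives symbols for xyl1 and xdh1, while crt1 is the name under which TRIREDRAFT_3405 was listed. The study measured poly(A) RNA of Trichoderma reesei, a filamentous fungus known for its secreted cellulases and xylanases. One strain, Δace1, is a deletion of ace1 made in QM6a, and the other is its wild type, QM6a. Each strain is represented by 3 libraries. Shake flasks with 1% D-glucose (28 °C, 250 rpm) served for the first 24 h in both strains, after which the mycelium was washed and kept on 1% D-mannitol for 3 h. Neither sugar given to the cultures was a pentose, and no inducing sugar is named in the labels. Nothing in the labels says whether the libraries came from separate cultures, whether Δace1 is more than 1 clone, or how the gene was deleted. The p-values therefore measure the spread between these libraries, which may be technical.

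In filamentous fungi D-xylose is taken up, reduced to xylitol by an aldose reductase, and oxidised to D-xylulose by xylitol dehydrogenase. Xyl1 carries out the reduction and also acts on L-arabinose and D-galactose, and Xdh1 carries out the oxidation. Crt1 is a membrane transporter of the major facilitator superfamily, known to be needed for cellulase induction by lactose and cellulose in this fungus. Ace1, the product of the deleted gene, is a zinc finger transcription factor that represses genes of cellulases and xylanases. The comparison asks whether loss of Ace1 changes these transcripts once the mycelium is on mannitol.

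Library totals were 5482552 to 6424125 estimated counts for Δace1 and 6072118 to 6938203 for QM6a. The deleted gene, ace1, was read at 6 to 14 counts in Δace1, against 7765 to 8432 counts in QM6a, so no library went against its label. TRIREDRAFT_82208, listed as the conidial pigment gene pks4 and used to mark conidia, stayed at 7 to 12 counts in Δace1 and at 4 to 8 in QM6a. In bulk RNA, a transcript level per cell and the share of cells that carry the transcript cannot be told apart.

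All 3 transcripts were higher in Δace1, and they differed widely in how much. The transporter gene crt1 rose about 76.4-fold, the aldose reductase gene xyl1 rose 5.88-fold and the xylitol dehydrogenase gene xdh1 rose 2.87-fold. For each gene the lowest Δace1 library lay above the highest QM6a library. Among all 7769 genes tested, 41.2% were called higher in Δace1, 23.2% were called higher with a change of at least 2-fold, and 42.0% had Δace1 libraries that all lay above the QM6a libraries. Calls are those of edgeR's quasi-likelihood test at a Benjamini-Hochberg adjusted p below 0.05 over all tested genes. With 80.8% of the tested genes called in one direction or the other, a call by itself says little about these genes, and the size of the change says more.

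Levels between genes are compared in TPM, which divides by transcript length and by the library's sum. The crt1 transcript was near the limit of detection in QM6a and moderately abundant in Δace1. It had 741, 596 and 501 counts in the Δace1 libraries, against 4, 9 and 5 counts in the QM6a libraries. As a level per length this was 71.7, 62.9 and 54.7 TPM in Δace1, against 0.290, 0.752 and 0.410 TPM in QM6a. The lowest Δace1 library thus stood far above the highest QM6a library, which was replicate 2.

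After scaling of the libraries by TMM (trimmed mean of M values), crt1 averaged 86.6 ± 9.41 CPM (counts divided by the scaled library size) in Δace1 and 1.13 ± 0.536 CPM in QM6a (SD, n = 3 each). The log2 change was 6.26 (standard error, SE, 0.19; edgeR, adjusted p = 1.19e-14), and its 95% interval ran from 57.9-fold to 101-fold. It ranked 62 from the highest among the 7769 log2 changes. The gene crt1 was among the tested genes through its Δace1 counts, since its QM6a counts alone were below the count filter. The QM6a value rests on 18 counts in all, for which the exact Poisson interval is 10.7 to 28.4 counts. The ratio of summed counts per scaled depth was 78.1, with a 95% counting interval of 49.3 to 132 that covers counting error only. Among the QM6a libraries the coefficient of variation was 47.5%, close to the 40.8% that counting error alone gives at that depth.

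The aldose reductase gene xyl1 was the most abundant of these transcripts in Δace1. It had 1551, 1255 and 1239 counts in Δace1, against 192, 172 and 162 in QM6a. The levels were 241, 213 and 218 TPM in Δace1, against 22.4, 23.1 and 21.4 TPM in QM6a. Its libraries were tightly grouped within each strain, with a coefficient of variation of 5.82% in Δace1 and 4.92% in QM6a on the CPM scale.

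In CPM, xyl1 averaged 191 ± 11.1 in Δace1 and 32.6 ± 1.60 in QM6a (SD, n = 3 each). The log2 change was 2.55 (SE 0.08; edgeR, adjusted p = 1.45e-14), a 95% interval of 5.24-fold to 6.59-fold. It ranked 646 among the log2 changes of the tested genes.

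The xylitol dehydrogenase gene xdh1 was the least changed. It had 1068, 845 and 729 counts in Δace1, against 229, 247 and 224 in QM6a. This corresponded to 147, 127 and 113 TPM in Δace1, against 23.7, 29.4 and 26.2 TPM in QM6a. Here too the strains did not overlap, and the nearest libraries stood at 113 TPM in Δace1 and 29.4 TPM in QM6a.

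The mean CPM of xdh1 was 124.5 ± 13.3 in Δace1 and 43.5 ± 3.67 in QM6a (SD, n = 3 each). Its log2 change was 1.52 (SE 0.09; edgeR, adjusted p = 1.49e-10), a 95% interval of 2.50-fold to 3.29-fold, and it ranked 1245 among the tested genes.

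**Figure D1:**
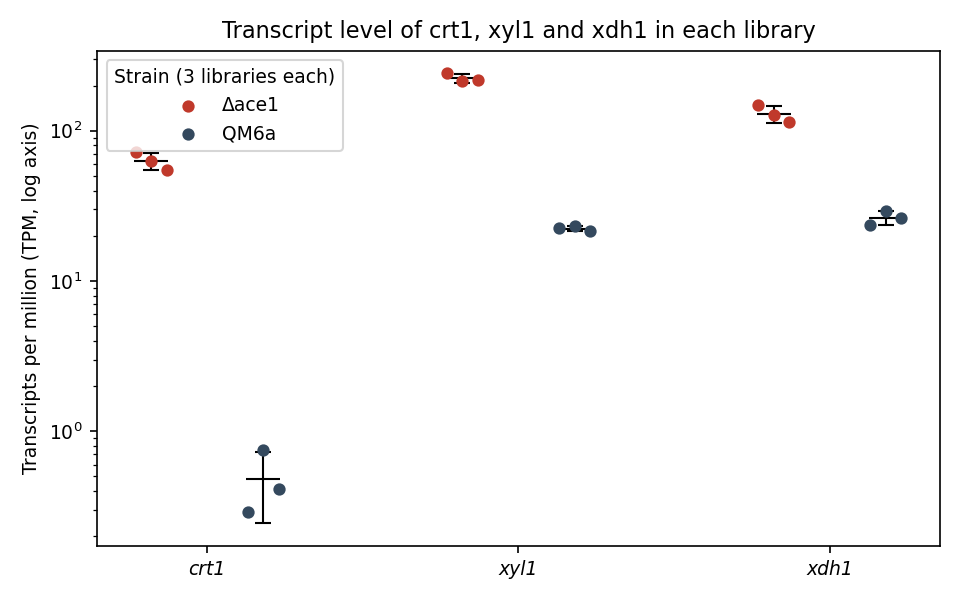
Transcript level (TPM, log axis) of crt1, xyl1 and xdh1 in each library, with Δace1 to the left of QM6a; points are libraries, the horizontal mark is the mean and the bars are 1 SD (n = 3 each). For crt1 the Δace1 libraries sit between 54.7 and 71.7 TPM and the QM6a libraries between 0.290 and 0.752 TPM, while xyl1 and xdh1 are above 20 TPM in QM6a as well.

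The place of these genes in the whole transcriptome differed between the strains in the same way. In the Δace1 libraries crt1 had a TPM of 1.95 to 2.39 times the library's median gene, against 0.0191 to 0.0470 times in the QM6a libraries. Its level exceeded that of 68.9% to 74.2% of the 9113 genes in Δace1, against 13.6% to 18.2% in QM6a. The level of xyl1 exceeded 91.5% to 92.6% of genes in Δace1 and 57.2% to 59.3% in QM6a. For xdh1 these shares were 84.7% to 87.6% in Δace1 and 60.5% to 64.5% in QM6a. Both pathway genes were therefore above the median gene in QM6a on mannitol already, whereas crt1 was below the median gene in all 3 libraries there.

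The order of the pathway genes was different in the strains. In every Δace1 library the TPM of xyl1 was above that of xdh1, with a ratio of 1.64, 1.68 and 1.92. In every QM6a library it was below, with a ratio of 0.946, 0.786 and 0.816. Within QM6a these genes were closest in replicate 1, with 23.7 TPM for xdh1 and 22.4 TPM for xyl1. Their order in QM6a is thus less clear than in Δace1. The ratio was on average 2.06 times higher in Δace1, a log2 difference of 1.04 (SE 0.11). Since both genes are read in the same library, this ratio does not depend on how libraries are scaled to each other.

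The transporter gene gained on both enzymes. The ratio of crt1 to xyl1 was 0.297, 0.295 and 0.251 in Δace1, against 0.0129, 0.0325 and 0.0192 in QM6a. The ratio of crt1 to xdh1 was 0.487, 0.495 and 0.482 in Δace1, against 0.0122, 0.0255 and 0.0157 in QM6a. On the log2 scale the differences were 3.80 (SE 0.39) and 4.84 (SE 0.31). All 3 ratios separated the strains without overlap. The share of other gene pairs that do so was not computed. The 3 ratios are not independent, since each follows from the others. The exact two-sided permutation test over the 6 libraries gave p = 0.1 for each, the smallest value that 3 against 3 allows, and 0.1 after Benjamini-Hochberg adjustment over the 3 ratios. This design cannot reach 0.05 for a single ratio.

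**Figure D2:**
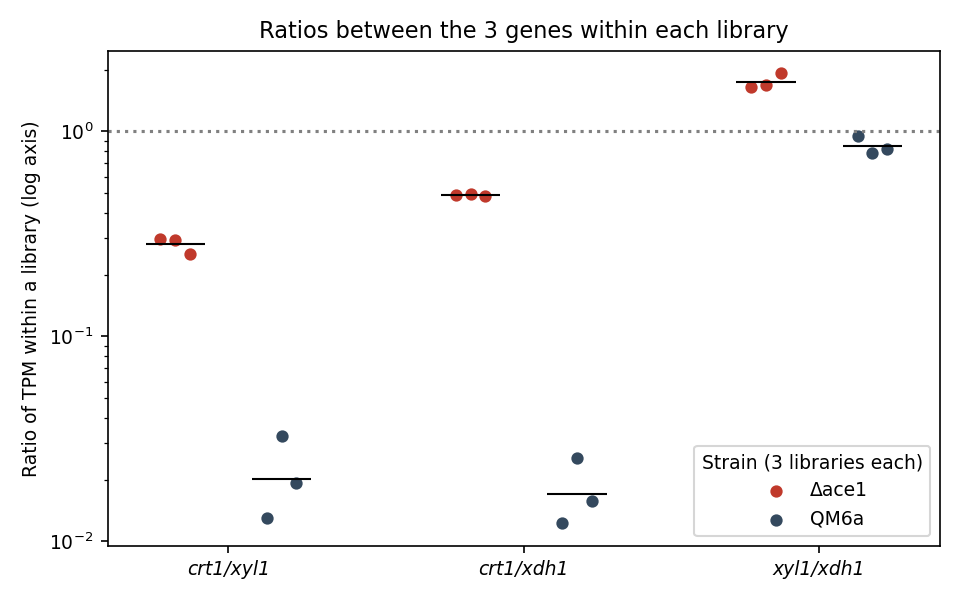
Ratio of TPM between pairs of the 3 genes within each library (log axis), with Δace1 to the left of QM6a; points are libraries, horizontal marks are geometric means and the dotted line is a ratio of 1. The ratio of xyl1 to xdh1 lies above 1 in the 3 Δace1 libraries (1.64 to 1.92) and below 1 in the 3 QM6a libraries (0.786 to 0.946).

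Summed, the 3 transcripts made up 417 ± 38.9 TPM in Δace1 and 49.2 ± 3.63 TPM in QM6a (SD, n = 3 each). The make-up of the pool differed as well. The share of crt1 was 15.1 ± 0.813% in Δace1 and 0.963 ± 0.404% in QM6a. That of xyl1 was 53.9 ± 2.18% in Δace1 and 45.4 ± 2.58% in QM6a, and that of xdh1 was 31.0 ± 1.38% in Δace1 and 53.6 ± 2.24% in QM6a.

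The sizes of these changes depended on how libraries were scaled, while the calls did not. Relative to TMM, the median log2 change of all tested genes was 0.16 higher with upper-quartile scaling, 0.50 higher with library totals and 0.72 higher on log2(TPM + 1). The log2 change of xyl1 ran from 2.54 to 3.27 and that of xdh1 from 1.51 to 2.25 over 5 scalings, and on log2(TPM + 1) they were 9.65-fold and 4.74-fold. A scaling of whole libraries shifts all genes alike, so other changes given here move by about as much as the median, apart from low genes on log2(TPM + 1). For crt1 the log2 change ran from 5.44 to 6.75, with the lowest, 43.3-fold, on log2(TPM + 1). There the added 1 TPM exceeds the QM6a level of crt1 itself, so this fold understates the change.

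**Figure D3:**
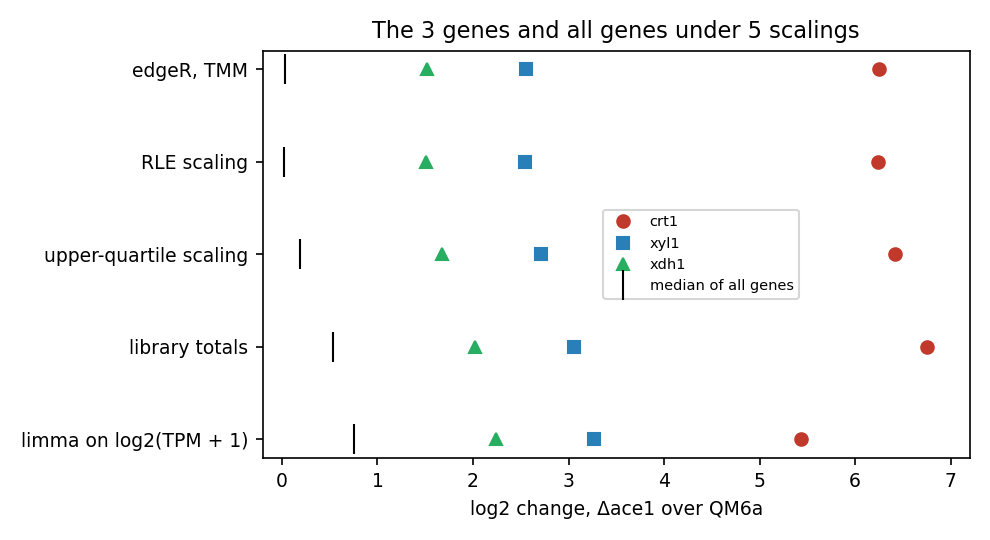
Log2 change of crt1, xyl1 and xdh1, Δace1 over QM6a, under 5 scalings of the libraries (rows), with the median of all tested genes as a vertical mark. The median moves with the scaling, from 0.02 to 0.75, and xyl1 and xdh1 move with it, while crt1 is lowest, at 5.44, on log2(TPM + 1).

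Other enzymes of pentose, galactose and polyol use gave a mixed picture. The list was written by symbol, with xyl1 and xdh1 in it, and 8 of its 23 symbols were in the reference table. Of these 8 genes 6 rose and 1 fell, and their log2 changes had a median of 1.19. Over the alternatives run 5 to 7 rose, with 5 where lxr1 was not called. Without xyl1 and xdh1, 4 of 6 rose and 1 fell, with a median of 0.61. Among those that rose, lad1 passed the count filter through its Δace1 counts, so it adds no support for a direction of the list. Over all 7769 tested genes 41.2% rose and 39.5% fell, and the median was 0.03.

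The gene lad1 rose. It encodes L-arabinitol dehydrogenase, which acts after Xyl1 in L-arabinose use. It had 174, 136 and 123 counts in Δace1, against 12, 7 and 11 in QM6a. Its level was 20.4 ± 2.41 TPM in Δace1 and 1.08 ± 0.239 TPM in QM6a (SD, n = 3 each), and its log2 change was 3.45 (SE 0.20). This lay between the change of crt1 and that of xyl1.

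The gene lxr1, named for L-xylulose reductase and later described as a D-mannitol dehydrogenase, had 328, 336 and 279 counts in Δace1, against 12, 32 and 95 in QM6a. The Δace1 libraries were close to each other and the QM6a libraries spread widely, without reaching the Δace1 level. The log2 change was 2.37 (SE 0.62; edgeR, adjusted p = 0.0216). Without QM6a replicate 3, the highest of its strain, the log2 change was 3.45. The call was lost without Δace1 replicate 1, 2 or 3 and without QM6a replicate 2, with an adjusted p of 0.0599, 0.0675, 0.06 and 0.0781, and with a replicate block, at 0.0628.

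The 3 listed genes of the Leloir pathway, which converts D-galactose, rose or were not called with TMM. Galactokinase (gal1) rose by 0.85 on the log2 scale with TMM, by 1.35 under library totals and by 1.59 on log2(TPM + 1), with 79.9 ± 4.49 TPM in Δace1 and 26.0 ± 1.51 TPM in QM6a (SD, n = 3 each). UDP-galactose epimerase (gal10) rose by 0.37 with TMM, by 1.137 on log2(TPM + 1) and by 0.87 under library totals. The uridylyltransferase gene gal7 had a log2 change of -0.18 and was not called (adjusted p = 0.0535), and with library totals (0.32) and on log2(TPM + 1) (0.57) it was called higher. The glycerol dehydrogenase gene gld1 fell by 1.95 on the log2 scale. It had 101, 90 and 81 counts in Δace1, against 256, 279 and 271 in QM6a.

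Of other sugar transporter genes, hxt1 alone was looked up, by its symbol, after the reference table was seen. This hexose transporter gene was read 7, 13 and 3 times in Δace1 and 5, 1 and 3 times in QM6a. It was below the count filter and was not tested, and the strains overlapped.

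Both listed intracellular beta-glucosidase genes, whose products cleave imported cellobiose, rose, where 41.2% of all tested genes did. The gene cel1a had 93, 81 and 88 counts in Δace1, against 11, 6 and 12 in QM6a, a log2 change of 2.78. Its QM6a counts alone were below the count filter, which it passed through its Δace1 counts. The gene cel1b had 101, 77 and 73 counts in Δace1, against 22, 26 and 27 in QM6a, a log2 change of 1.35. Of 8 listed enzymes of xylan breakdown, 4 passed the count filter and all 4 of those rose. Genes near 0 counts in QM6a pass that filter through their Δace1 counts alone, so this count is no support for a direction. Among them TRIREDRAFT_111849 (listed as the xylanase xyn4) had 91, 74 and 77 counts in Δace1, against 4, 6 and 6 in QM6a. TRIREDRAFT_72526 (listed as the alpha-glucuronidase glr1) had 181, 164 and 135 counts in Δace1 and none in QM6a, which was at least 40.6-fold higher against a floor of 3 counts per library. The other 4 enzymes of xylan breakdown had at most 3 counts in any library.

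Among the listed regulators, the activator gene xyr1 rose. Xyr1 is needed for expression of xylanases, cellulases and xyl1. The gene xyr1 had 269 ± 4.74 CPM in Δace1 and 93.0 ± 2.64 CPM in QM6a (SD, n = 3 each), a log2 change of 1.53 (SE 0.06), beside the 1.52 of xdh1 with TMM. The carbon catabolite repressor gene cre1 fell by 1.04 on the log2 scale with TMM, by 0.54 under library totals and by 0.26 on log2(TPM + 1). TRIREDRAFT_77513 (listed as the regulator ace3) rose by 0.61 with TMM, by 1.11 under library totals and by 1.34 on log2(TPM + 1). Whether these changes bear on crt1, xyl1 or xdh1 was not tested.

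**Figure D4:**
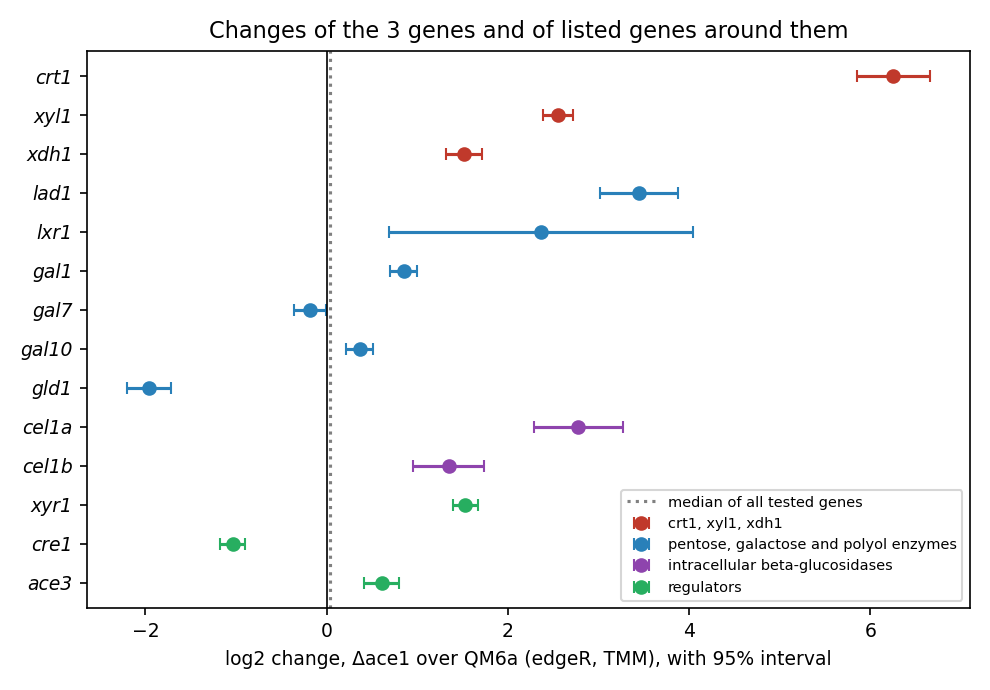
Log2 change, Δace1 over QM6a, of crt1, xyl1 and xdh1, of the tested pentose, galactose and polyol enzymes, of intracellular beta-glucosidases and of regulators other than ace1; points are edgeR estimates, bars are 95% intervals and the dotted line is the median of all tested genes. The change of crt1 (6.26) is the largest shown, lad1 (3.45) is next and lxr1 has the widest interval. Below 0 lie gld1 (-1.95), cre1 (-1.04) and gal7 (-0.18, not called).

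The genes next to each locus are described in turn, and differences between loci were not tested. Neighbours were taken from the gene order of the reference table (assembly v2.0), 3 on each side, and have no symbol there. On the side that follows crt1 in that table, TRIREDRAFT_59364 had 351, 327 and 293 counts in Δace1, against 15, 21 and 20 in QM6a, a log2 change of 3.72 (SE 0.15). Between it and crt1, TRIREDRAFT_26163 had 29, 21 and 25 counts in Δace1, against 0, 3 and 0 in QM6a, a ratio of 19.1 with a 95% counting interval of 6.30 to 94.9. Its 3 QM6a counts were all in replicate 2, and without that library, at a floor of 3 counts in each remaining QM6a library, Δace1 was at least 6.48-fold higher. It passed the count filter through its Δace1 counts. On the other side, TRIREDRAFT_47066 fell by 1.34 on the log2 scale. TRIREDRAFT_47069 fell by 0.26, a call that was lost with upper-quartile scaling and without QM6a replicate 2 and that was turned round with library totals and on log2(TPM + 1). The outer neighbour TRIREDRAFT_106168 and the inner neighbour TRIREDRAFT_106164 had at most 1 count in a library.

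Around xyl1, 4 of 6 neighbours rose and 1 fell, where 41.2% of all tested genes rose and 39.5% fell. TRIREDRAFT_48516, separated from xyl1 by a single gene, had 3025, 2673 and 2651 counts in Δace1, against 423, 352 and 367 in QM6a. Its log2 change of 2.49 (SE 0.07), was close to the 2.55 of xyl1. The gene between them, TRIREDRAFT_107775, rose by 1.96 on the log2 scale. It had 77, 69 and 59 counts in Δace1, against 11, 15 and 14 in QM6a. Its QM6a counts alone fell just short of the count filter, which it passed through its Δace1 counts. The number of neighbours that rose is therefore no support for a direction. On the other side TRIREDRAFT_62706 rose by 0.28 and TRIREDRAFT_107779 by 1.02. TRIREDRAFT_107773 fell by 0.88, a call that was lost on log2(TPM + 1), at -0.10. On that scale 5 of the 6 neighbours were called higher, as were 5453 of all 7855 tested genes. Around xdh1 the neighbours' direction turned with the scaling. With TMM none of 6 rose and 4 fell, and their median was -0.46 on the log2 scale, where 39.5% of all tested genes fell. With library totals 2 rose and 1 fell, where 4705 of all 7769 tested genes rose and their median was 0.53. On log2(TPM + 1) 4 rose and 1 fell, at a median of 0.31. There 5453 of all 7855 tested genes rose, and their median was 0.75, above that of these neighbours. The largest of these falls was that of TRIREDRAFT_67840, -1.93, which was also called lower under the other scalings. The other 3 falls, of 0.37 to 0.57 on the log2 scale, were not called with library totals. TRIREDRAFT_23146 (0.80) and TRIREDRAFT_41035 (0.21), which adjoin xdh1, were called higher on log2(TPM + 1), as were TRIREDRAFT_5436 (0.40) and TRIREDRAFT_110983 (0.74).

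**Figure D5:**
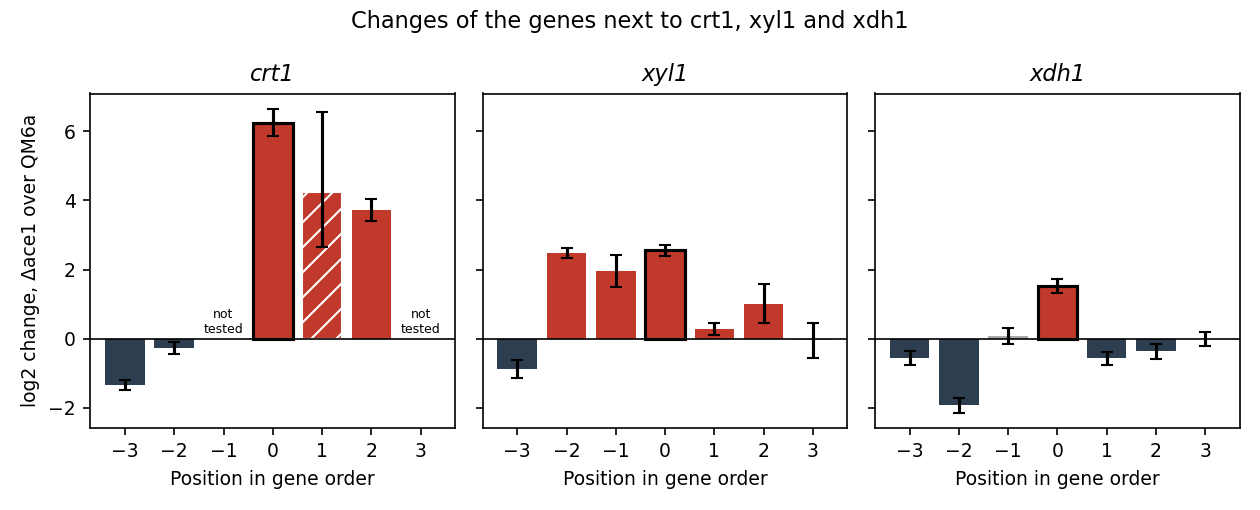
Log2 change, Δace1 over QM6a, of crt1, xyl1 and xdh1 (outlined, position 0) and of 3 genes on each side in the gene order of the reference table; red bars were called higher, dark bars lower, and error bars are 95% intervals. The hatched bar, TRIREDRAFT_26163, is the log2 of its ratio of counts with its counting interval. Red bars adjoin crt1 on one side and xyl1 on both sides, and none adjoins xdh1 with TMM. Of all tested genes 41.2% were called higher with TMM, and differences between loci were not tested. The adjoining genes TRIREDRAFT_26163 (crt1) and TRIREDRAFT_107775 (xyl1) passed the count filter through their Δace1 counts. The gene that adjoins crt1 on its other side was not tested. On log2(TPM + 1) both genes that adjoin xdh1 were called higher, as were 5453 of all 7855 tested genes.

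The genes most like each transcript over the 6 libraries were found by the root mean square difference of log2(CPM + 1), after each gene was centred on its own mean. This measure is set mainly by the difference between the strains. For xyl1 the nearest of all tested genes were TRIREDRAFT_107507, TRIREDRAFT_77974 and TRIREDRAFT_48516, with differences of 0.05, 0.06 and 0.07. The last of these is the neighbour described above, which thus ranked 3 among 7769 genes in likeness to xyl1. For xdh1 they were TRIREDRAFT_112080, TRIREDRAFT_121814 and TRIREDRAFT_120288, with differences of 0.05, 0.06 and 0.06. The gene with a symbol nearest to xdh1 was xyr1, which ranked 53 with a difference of 0.12. The chitinase gene chi18-9 followed and ranked 131 with 0.14. For crt1 the nearest of all tested genes were TRIREDRAFT_73516, TRIREDRAFT_82374 and TRIREDRAFT_76696, with 0.13, 0.16 and 0.20. The added 1 CPM is close to the QM6a mean of crt1, 1.13 CPM, so this measure understates its difference between the strains. With edgeR the log2 changes of these genes were 5.27, 5.69 and 5.65, below the 6.26 of crt1. Of the genes with a symbol, those nearest to crt1 were the beta-glucosidase gene cel3b and the malate synthase gene acu9. Here cel3b ranked 25 with a difference of 0.35, and acu9 ranked 185 with 0.97. For xyl1 the nearest with a symbol were the chitinase gene chi18-13, which ranked 160 with 0.20, and cel1a, which ranked 227 with 0.24. Of the 9113 genes 234 have a symbol, so the nearest with a symbol can lie far down the ranking.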

How the data were processed

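RNA of 6 samples was sequenced from stranded poly(A) libraries, per the labels' protocols. The submitters' processing notes name FastQC 0.11.5, kallisto 0.43.1 and DESeq2 1.14.1. Which transcript set or build they used is not given in the sources used here. Per the file headers, each deposited sample table holds an estimated count, a TPM value and lengths per transcript. The TPM values deposited by the authors use effective length and hold no depth. The deposited series table holds a normalized signal per gene, a count divided by about 1 factor per sample. Multiplied back, 92.5% to 96.1% of its values were whole reads (within 0.05), and edgeR on these reads called 6274 genes.

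The tables were joined by their counts in all 6 samples. Of 9113 genes, 8526 had a single partner, the genes described with TPM among them, and tied genes had at most 11 counts in total. As 99.1% of the lengths are multiples of 3, they are coding lengths.

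Estimated counts were rounded and tested with edgeR 4.0.16 (quasi-likelihood, robust, TMM, filterByExpr) in R 4.3.3, with DESeq2 1.42.0, limma 3.58.1 and other settings as alternatives. The procedure was also run on simulated counts in which few genes changed, unlike here, so that run does not bear on the choice of scaling. A standard error is the size of the log2 change over the root of F. Members, lists and tests were chosen with earlier results of these data known. Named genes are ace1, the 3 genes, the listed genes, 3 neighbours on each side, and the genes nearest in pattern (3, plus 2 with a symbol). Comparisons of protein relatives and of promoter motifs were planned and not run, because no sequences were used here. Within strains, pairs of libraries had a chi-square of 2.88 to 27.6 per degree of freedom, above sampling noise, so none was taken for a library deposited 2 times.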

Additional observations from a re-analysis of the deposited data

How the results depend on the processing

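The calls of crt1, xyl1 and xdh1 were the same under every alternative run. Their 3 ratios were recomputed only from counts per coding length, with the same differences, and without single libraries. Leaving out 1 library cannot turn the direction of ratios that do not overlap, so that direction was not put to a test. Without single libraries the log2 change ran from 5.998 to 6.69 for crt1, from 2.51 to 2.60 for xyl1 and from 1.43 to 1.59 for xdh1. The log2 difference of the ratios ran from 3.49 to 4.15 for crt1 to xyl1, from 4.61 to 5.14 for crt1 to xdh1 and from 0.97 to 1.12 for xyl1 to xdh1. The QM6a level of crt1, 18 counts in all, limits its fold more than the Δace1 level does. Genes called lower numbered 3072 with TMM, 1850 with library totals, 1324 on log2(TPM + 1) and 1319 on log2(TPM + 0.1), and genes called higher 3202, 4705, 5453 and 5436. Among the pentose, galactose and polyol enzymes 2 in place of 1 were called lower with RLE scaling, without robust estimation and on log2(normalized value + 1), the added one being gal7. Of these enzymes 7 were called higher with library totals, on log2(TPM + 1) and on log2(TPM + 0.1), and 5 with a replicate block, without any of the Δace1 replicates and without QM6a replicate 2.

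With library totals gal7 (0.32), TRIREDRAFT_47069 (0.24), TRIREDRAFT_5436 (0.14) and TRIREDRAFT_110983 (0.49) were above 0. On log2(TPM + 1) and log2(TPM + 0.1) so were gal7 (0.57 and 0.59), TRIREDRAFT_47069 (0.49 and 0.51), TRIREDRAFT_107780 (0.58 and 0.68), TRIREDRAFT_67859 (0.20 and 0.21), TRIREDRAFT_41035 (0.21 and 0.22), TRIREDRAFT_5436 (0.40 and 0.41) and TRIREDRAFT_110983 (0.74 and 0.75). These settings also raised the median of all genes, and the cause was not tested further. No sign of pairing by replicate number was seen in the deviations of libraries from their strain's mean. Whether same-numbered libraries were handled together is not known here. Across strains, the deviations of same-numbered libraries had correlations of -0.011, 0.032 and -0.047, and those of other pairs ran from -0.069 to 0.064. With a replicate block 6223 genes were called in place of 6274, the log2 changes of crt1, xyl1 and xdh1 were 6.26, 2.55 and 1.52, and lxr1 lost its call. The planned comparisons of protein relatives were not run.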
